A study of Rattus norvegicus with 24 samples.

Results

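The transcripts described here are those of 10 activity-regulated genes, Egr1, Egr2, Egr3, Egr4, Nr4a1, Nr4a2, Nr4a3, Npas4, Arc and Homer1, in rat frontal cortex after inhalation of tungsten. They were taken by gene name from the rows with an Ensembl rat identifier, and they are 10 of the 32883 reference genes listed for every animal. All 10 passed the filter on low values, which kept 15644 genes. The genes were chosen with their values in these same libraries in view, so their levels by group are a description and carry no test.

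Adult male Sprague-Dawley rats inhaled a tungsten aerosol and their frontal cortex was sampled a day later, with 1 mRNA library per rat and 8 rats per group. The study names a stranded kit for the libraries. According to the labels the air held 80 mg/m3 in the High group, 5 mg/m3 in the Low group and 0 mg/m3 in the Control group. They enter the treatment as inhaled tungsten for all 24 rats, Control included, and they do not say how the Control rats were handled. All 24 sample titles hold the word Repeat, which the titles do not explain. Libraries are called by their numbers, which run from 49 to 56 for Control, from 57 to 64 for Low and from 65 to 72 for High.

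Immediate early genes are transcribed within minutes of a stimulus, from factors already present in the cell and with no new protein needed. In cortex they are switched on by synaptic activity through calcium entry and the MAP kinase cascade, which act on the transcription factors CREB, SRF and MEF2. Egr1 to Egr4 encode zinc finger transcription factors, Nr4a1 to Nr4a3 encode orphan nuclear receptors, and Npas4 encodes a factor induced by depolarisation in neurons. Arc and Homer1 act at the synapse itself, Arc in the removal of AMPA receptors and the short form of Homer1 in uncoupling metabotropic glutamate receptors from their scaffold.

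The promoter windows of 4 members are shown, those that passed the threshold between Low and High (given with the group values) and whose window holds the letters CGTCA, a choice made after these values were seen. RefSeq windows of the GRCr8 assembly, from 250 bases before to 50 after an annotated transcription start, were matched by symbol for 7 of the 10 members, all except Egr3, Nr4a3 and Arc. Capitals mark the letters CGTCA on either strand (the core of the cAMP response element, bound by CREB), CArG boxes (the site bound by SRF) and the TATA box letters TATATAA on either strand. Each sequence runs 5′ to 3′ along the strand of the gene.
Egr1, plus strand, chr18:26736828-26737127: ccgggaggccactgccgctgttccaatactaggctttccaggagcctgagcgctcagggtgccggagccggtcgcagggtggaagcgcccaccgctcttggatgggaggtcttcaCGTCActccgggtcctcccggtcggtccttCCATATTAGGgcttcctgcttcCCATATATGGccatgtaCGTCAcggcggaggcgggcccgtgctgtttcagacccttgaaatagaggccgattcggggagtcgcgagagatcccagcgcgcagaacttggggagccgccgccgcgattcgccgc
Egr2, minus strand, chr20:21054392-21054691: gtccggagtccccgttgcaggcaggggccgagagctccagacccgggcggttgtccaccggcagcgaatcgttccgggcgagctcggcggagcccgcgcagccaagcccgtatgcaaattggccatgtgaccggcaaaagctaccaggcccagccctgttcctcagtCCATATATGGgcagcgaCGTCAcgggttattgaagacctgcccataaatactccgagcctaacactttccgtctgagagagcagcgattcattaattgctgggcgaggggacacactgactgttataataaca
Egr4, minus strand, chr4:119607768-119608067: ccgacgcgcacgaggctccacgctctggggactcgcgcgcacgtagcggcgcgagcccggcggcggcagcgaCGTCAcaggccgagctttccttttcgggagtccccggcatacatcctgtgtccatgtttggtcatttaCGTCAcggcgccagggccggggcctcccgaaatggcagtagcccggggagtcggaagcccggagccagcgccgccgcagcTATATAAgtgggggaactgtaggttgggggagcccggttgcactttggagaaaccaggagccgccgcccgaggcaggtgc
Nr4a1, plus strand, chr7:134259888-134260187: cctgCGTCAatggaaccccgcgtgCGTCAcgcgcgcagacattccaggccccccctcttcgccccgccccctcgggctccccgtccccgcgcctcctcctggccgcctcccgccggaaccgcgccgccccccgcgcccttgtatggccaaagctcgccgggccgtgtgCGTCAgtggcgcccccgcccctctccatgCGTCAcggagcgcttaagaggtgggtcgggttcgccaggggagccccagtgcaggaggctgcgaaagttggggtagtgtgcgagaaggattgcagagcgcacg

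The Egr1 and Egr2 windows share an arrangement, a CArG box whose first base lies 83 bases before the start and a CGTCA that begins 66 bases before it. Egr1 has a further CArG box at 105 bases and a further CGTCA at 135 bases before the start. Egr4 holds CGTCA at 178 and 110 bases and TATATAA at 30 bases before the start, with 0 CArG boxes. Nr4a1 holds 4 matches of CGTCA, at 246, 226, 82 and 53 bases before the start. Of the 33469 RefSeq windows of this length, 21.2% hold CGTCA on either strand, 0.236% hold it at least 4 times, 1.64% hold a CArG box and 0.272% hold both. The complete palindrome TGACGTCA, which contains CGTCA, is in 1.83% of all windows and in none of the 7. Nr4a2 has 1 CGTCA, Npas4 has 1 TATATAA, a match found in 3.94% of all windows, and Homer1 has none of the 3 marked motifs. The Egr2, Nr4a1, Nr4a2 and Npas4 windows lie 760, 12985, 11039 and 11936 bases inside the outermost RefSeq start of their genes, so they are not at that start. A match is a run of letters and was not tested for binding.

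Coverage, the mean read depth per base of a gene, was divided by its sum over the reference genes and multiplied by 1000000, and is called scaled coverage below. It is a depth per base, so it does not grow with gene length, but the order of genes depended on the deposited column used. In Low library 59, Nr4a1 had scaled coverage of 64.8 beside 184 for Arc. In the TPM column of that library, Nr4a1 had 211 beside 171 for Arc. The order of the members and the ratios between genes below therefore hold for coverage alone. In units of 1000000, the median sum before scaling was 2.28 in High, 1.81 in Low and 1.95 in Control. The tables hold no read counts, so counting error is not known and the error given is the spread between rats. The Control and High tables also list assembled loci and the Low tables list 0, so the kind of table cannot be told apart from the Low group. The log2 differences below use the reference rows alone. Adding the assembled loci changes the sign in 8 of 10 members between Low and Control and in 6 of 10 between Low and High. That sum adds to Control and High alone and in part enters the same coverage again, as given at the end. Libraries 56 to 62 (1 Control and 6 Low) had scaled coverage of 5449 to 8102 (median 6774) over 8 minus-strand mitochondrial genes, against 84.9 to 155 (median 111) in the other 17 libraries. Whether libraries 56 to 62 kept the strand was not tested. Results are therefore also given outside libraries 56 to 62, where 7 Control, 2 Low and 8 High rats remain. The labels name the tissue frontal cortex, although their extraction text speaks of cell lines. Markers of neurons, astrocytes, oligodendrocytes and microglia were present in every group, and Cldn5, an endothelial marker, was at 0 in every Low library. No tested marker passed the threshold between groups. Cldn5 and the choroid plexus markers Clic6, Folr1 and Kl were below the filter, and the endothelial marker Pecam1 was not found. Markers of striatum, the region beneath the cortex, had summed levels of 243 to 555 in Low rats, 331 to 732 in Control rats and 175 to 1160 in High rats, and all 6 had a lower mean log2 value in Low than in either other group. All 6 cortical layer markers had a higher mean log2 value in Low than in High, with summed levels of 125 to 203 in Low rats, 92.2 to 180 in Control rats and 66.7 to 174 in High rats. All 6 were also lower in High than in Control, with a median log2 difference of -0.17. Of the 5 neuronal markers, 4 had a higher mean log2 value in Low than in Control (median difference 0.12) and 4 than in High (0.17). In High, 4 of these 5 were lower than in Control (median difference -0.10). All 5 oligodendrocyte markers had a higher mean log2 value in Low than in Control and in High, with medians of the log2 differences of 0.10 and 0.24, and all 5 were lower in High than in Control. All 5 blood markers were lower in Low than in Control and in High, with medians of -0.29 and -0.20. The part of tissue composition in the differences below was not tested, and in bulk tissue fewer cells of a type and less RNA per cell cannot be told apart.

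In Control cortex, Egr1 and Arc were the most abundant members per base and Egr2 and Nr4a3 the least. Mean scaled coverage in Control was 143 ± 40.1 for Egr1, 98.7 ± 42.8 for Arc, 54.1 ± 14.2 for Homer1, 47.5 ± 11.6 for Egr3 and 37.2 ± 11.7 for Nr4a1 (SD, n = 8). It was 29.8 ± 7.05 for Egr4, 23.9 ± 6.28 for Nr4a2, 16.4 ± 6.35 for Npas4, 8.29 ± 3.47 for Nr4a3 and 6.80 ± 2.77 for Egr2 (SD, n = 8). From Homer1 down to Nr4a2, and between Nr4a3 and Egr2, neighbours in this order differed by less than the larger of their SDs. In Low, ordered by its own means, this held for all neighbours except Arc above Egr3, Egr4 above Npas4 and Npas4 above Nr4a2. In High it held for all except Egr1 above Arc and Homer1 above Egr4. Over all 24 libraries, Egr1 lay above 94.8% of the genes tested and Egr2 above 36.0%.

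**Figure D1:**
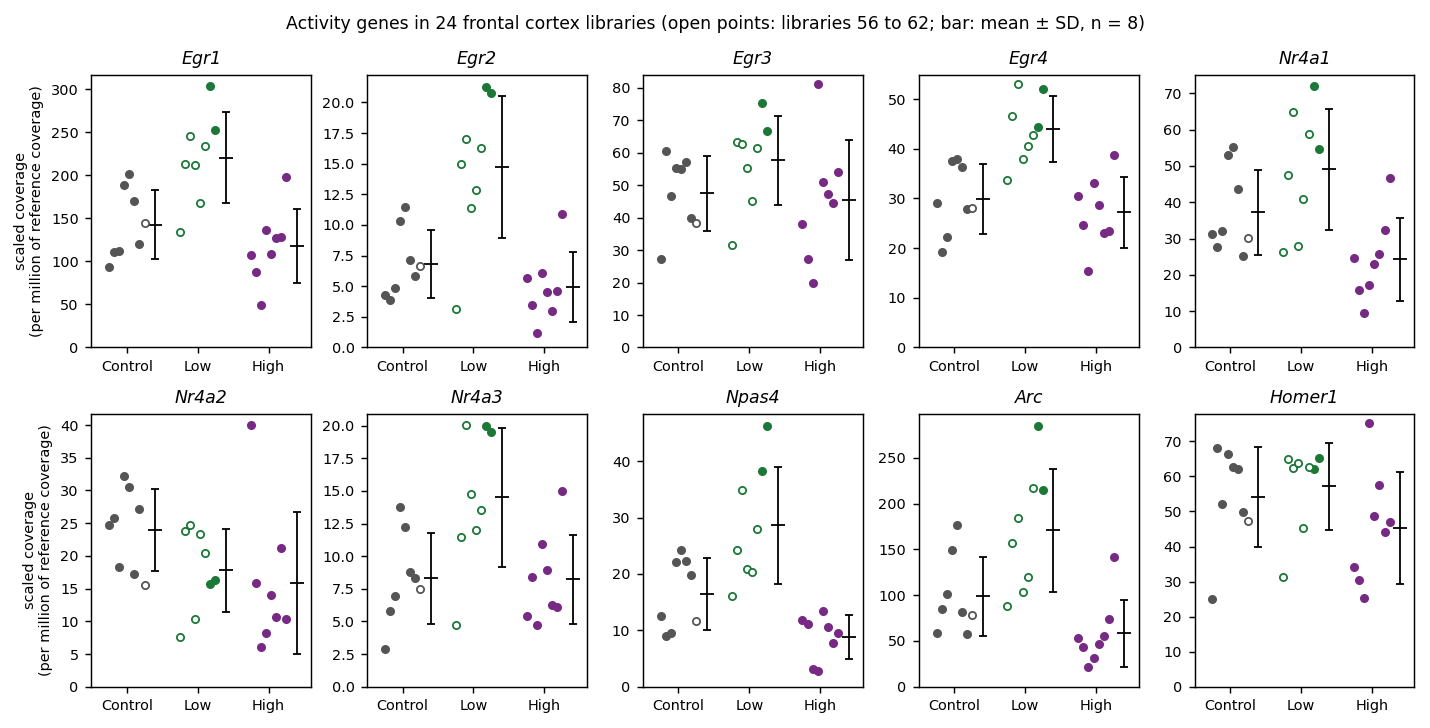
Scaled coverage (depth per base, per 1000000 of reference coverage) of the 10 genes by group, with 1 point per rat, open points for libraries 56 to 62, and a bar for the mean ± SD (n = 8). The Npas4 values of Low (16.2 to 46.2) lie above those of High (2.84 to 13.5), while every other gene overlaps between groups.

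Egr1, the best known of the Egr factors and widely used as a readout of recent neuronal activity, had scaled coverage of 134 to 304 in Low rats (median 224), 93.0 to 201 in Control rats (median 133) and 49.4 to 198 in High rats (median 118). In Low, 6 of 8 rats lay above every Control rat and all 8 above the Control median. The log2 difference was 0.64 ± 0.22 (SE) between Low and Control, -0.32 ± 0.22 between High and Control and 0.95 ± 0.22 between Low and High. The gene lies on chromosome 18 from 27657628 to 27661429, as the tables place it, and this position, like those below, was not checked against a genome.

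Egr2 (chromosome 20, from 22454463 to 22459025 in the tables), known as Krox20 and for its part in hindbrain segmentation and myelination, is also induced by activity in cortical neurons. Its scaled coverage was 3.11 to 21.3 in Low rats (median 15.6), 3.90 to 11.5 in Control rats (median 6.25) and 1.16 to 10.9 in High rats (median 4.56). Library 57 was the lowest of all Low values, while 6 of the other 7 Low rats were above every Control rat and all 7 above every High rat. The log2 difference was 0.94 ± 0.32 (SE) between Low and Control, -0.47 ± 0.32 between High and Control and 1.42 ± 0.32 between Low and High.

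Egr4 (chromosome 4, from 117293620 to 117296082), which is expressed mainly in the nervous system, had the tightest spread of the 10 genes, with a coefficient of variation of 15.2% in Low. Scaled coverage was 33.7 to 53.1 in Low rats (median 43.5), 19.2 to 38.0 in Control rats (median 28.6) and 15.3 to 38.7 in High rats (median 26.7). All 8 Low rats lay above the median of Control and above that of High, and 6 lay above every rat of either group. The log2 difference was 0.56 ± 0.16 (SE) between Low and Control, -0.14 ± 0.16 between High and Control and 0.70 ± 0.16 between Low and High. Egr3, known from muscle spindle development and synaptic plasticity, had scaled coverage of 31.7 to 75.4 in Low rats (median 62.1), 27.1 to 60.5 in Control rats (median 50.8) and 20.0 to 81.1 in High rats (median 45.9). In Low, 5 of 8 rats lay above every Control rat and 0 above every High rat. Its log2 difference was 0.28 ± 0.22 (SE) between Low and Control, -0.13 ± 0.22 between High and Control and 0.40 ± 0.22 between Low and High. The highest Egr3 value of all, 81.1, was in a High rat, library 68.

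The log2 differences of the 3 nuclear receptors against Control were not all of the same sign, while all 3 were higher in Low than in High. The genes were not tested against each other. Nr4a1 (chromosome 7, from 142905758 to 142920216), known as Nur77, had scaled coverage of 26.2 to 72.0 in Low rats (median 51.0), 25.2 to 55.1 in Control rats (median 31.6) and 9.49 to 46.8 in High rats (median 23.8). In High, 5 of 8 rats lay below every Control rat, and in Low 5 of 8 lay above every High rat. The log2 difference was 0.37 ± 0.26 (SE) between Low and Control, -0.67 ± 0.26 between High and Control and 1.03 ± 0.26 between Low and High.

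Nr4a3, known as NOR-1 and the least abundant receptor, was 4.76 to 20.0 in Low rats (median 14.2), 2.90 to 13.8 in Control rats (median 7.89) and 4.71 to 15.0 in High rats (median 7.30). Control and High had nearly the same level, with a log2 difference of 0.01 ± 0.27 (SE), while Low was 0.74 ± 0.27 from Control and 0.73 ± 0.27 from High. Nr4a2, known as Nurr1 and a marker of deep cortical and claustral neurons as well as an activity gene, had the opposite sign in Low against Control. It was 7.55 to 24.8 in Low rats (median 18.3), 15.5 to 32.2 in Control rats (median 25.3) and 6.09 to 40.0 in High rats (median 12.3). None of the 8 Low rats lay above the Control median, and 5 of 8 High rats lay below every Control rat. The log2 difference was -0.46 ± 0.29 (SE) between Low and Control, -0.74 ± 0.29 between High and Control and 0.28 ± 0.29 between Low and High. The High value of 40.0, in library 65, was the highest of all, and without it the difference between High and Control was -0.95. Library 65 also had the highest summed level of striatal markers, 1160. The ratio of Nr4a2 to Nr4a1 per base was 0.218 to 0.569 in Low rats (median 0.360), 0.395 to 1.08 in Control rats (median 0.590) and 0.220 to 1.63 in High rats (median 0.625).

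Npas4 (chromosome 1, from 220261008 to 220265772), the member most specific to neurons, separated Low from High without overlap. Scaled coverage was 16.2 to 46.2 in Low rats (median 26.1), 8.93 to 24.3 in Control rats (median 16.1) and 2.84 to 13.5 in High rats (median 10.1). All 8 Low rats lay above the Control median and all 8 High rats lay below it. Of the genes tested, 0.262% had every Low library above every High library. Mean scaled coverage was 28.6 ± 10.3 in Low and 8.78 ± 3.92 in High (SD, n = 8), a log2 difference of 1.66 ± 0.29 (SE). Npas4 differed by 0.78 ± 0.29 on the log2 scale between Low and Control and by -0.88 ± 0.29 between High and Control.

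Arc (chromosome 7, from 115907097 to 115910541), whose mRNA travels into dendrites, was 87.9 to 285 in Low rats (median 171), 57.8 to 177 in Control rats (median 83.3) and 21.8 to 141 in High rats (median 49.6). In High, 6 of 8 rats lay below every Control rat, and in Low 4 of 8 lay above every Control rat. Library 72 had the High value of 141, and the other High rats had 21.8 to 73.5. Mean scaled coverage was 171 ± 67.2 in Low and 58.2 ± 37.0 in High (SD, n = 8), with a log2 difference of 1.64 ± 0.31 (SE). The difference was 0.79 ± 0.31 between Low and Control and -0.85 ± 0.31 between High and Control.

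Homer1 varied least between groups of the 10 in the comparison of Low with Control. It had scaled coverage of 31.2 to 65.3 in Low rats (median 62.5), 24.9 to 68.1 in Control rats (median 57.0) and 25.4 to 75.3 in High rats (median 45.5). The log2 difference was 0.10 ± 0.21 (SE) between Low and Control, -0.27 ± 0.21 between High and Control and 0.37 ± 0.21 between Low and High. Only the short form of Homer1 is known to follow activity, and the tables give 1 value for the whole gene, which spans 100110 bases, so its forms were not told apart. The ratio of Arc to Homer1 per base, 2 synaptic transcripts, was 1.62 to 4.59 in Low rats (median 2.89), 1.16 to 2.83 in Control rats (median 1.80) and 0.419 to 3.01 in High rats (median 1.19).

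The comparison of Low with Control and that of High with Control share the 8 Control rats, and their values for the members stand side by side here. Low was higher than Control in 9 of 10 members, as were 66.5% of all genes tested, with a median log2 difference of 0.60, while the median over all genes tested was 0.06. High was higher than Control in 1 of 10 and in 36.0% of all genes, with a median of -0.39, against -0.03 over all genes. Low was higher than High in all 10, with a median of 0.84, against 0.09 over all genes. With assembled loci added, which enter Control and High alone, the member median was -0.11. A higher mean in Low than in High was found for 69.9% of all genes tested.

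With limma, 1 of the 10 members, Egr4, passed an adjusted p of 0.05 between Low and Control, where 6.11% of all genes tested passed in either direction. Between High and Control 0 members passed, as did 0.0% of all genes, and 4 members and 330 genes (2.11%) had an unadjusted p under 0.05. The exact Wilcoxon rank-sum test also gave 0 genes there, with 887 under 0.05 before adjustment. Between Low and High 6 members passed, Egr1, Egr2, Egr4, Nr4a1, Npas4 and Arc, all higher in Low, where 11.7% of all genes passed and 5.3% passed as higher in Low. Since the members were chosen from these contrasts, nothing is read from these counts. The Egr4 call was lost with no filter, without scaling, with median-of-ratios scaling, with libraries 56 to 62 as a covariate or left out, and with the exact Wilcoxon test, and 4 members passed between Low and Control without library 57.

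**Figure D2:**
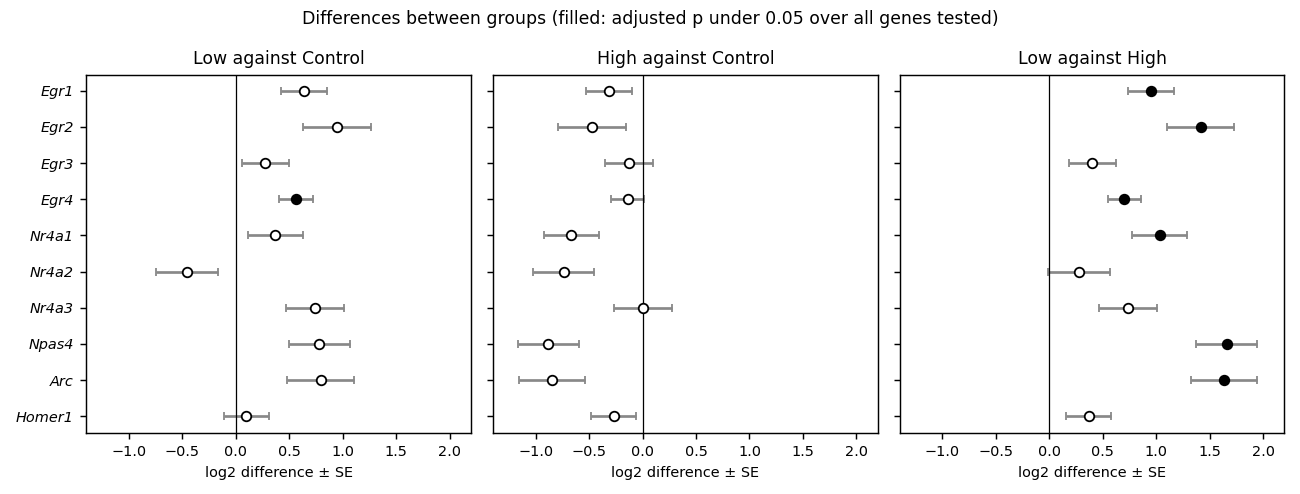
Log2 difference ± SE of the 10 genes in each comparison, from a fit to all 24 libraries on log2(scaled coverage + 1), with filled points for an adjusted p under 0.05 over all genes tested. In the comparison of Low with High all 10 points lie right of 0, from 0.28 for Nr4a2 to 1.66 for Npas4. Of these, 6 change sign with assembled loci added, which adds to Control and High alone.

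Values outside and inside libraries 56 to 62 are given as a description. Libraries 63 and 64, the 2 Low rats outside that set, lay above every High rat for 7 of the 10 members, the exceptions being Egr3, Nr4a2 and Homer1. Outside the set, the log2 difference between Low and High was 2.28 for Npas4, 2.27 for Arc, 2.04 for Egr2, 1.46 for Nr4a1, 1.32 for Egr1, 1.25 for Nr4a3 and 0.84 for Egr4. Between Low and Control outside the set, it was 1.58 for Egr2, 1.39 for Arc, 1.34 for Npas4 and 1.02 for Egr1. Inside the set there is 1 Control rat, library 56, so no spread can be given, and the 6 Low rats differed from it by 0.94 for Npas4, 0.81 for Arc and 0.69 for Egr2. Nr4a2 was the member whose sign differed, with -0.59 outside and 0.11 inside the set. With libraries 56 to 62 left out, Egr2, Npas4 and Arc passed the threshold between Low and High, and the median over the members was 1.29.

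These genes spread more between rats of a group than the typical gene, Egr4 in Low (15.2%) excepted. The coefficient of variation had a median over the members of 43.3% in High, 35.0% in Low and 29.7% in Control, while the median over the genes tested was 14.4%, 15.5% and 16.9%. Within each group a few rats were low or high in most members at once. Library 57 was the lowest Low rat for all 10, library 67 the lowest High rat for 9, and library 49 the lowest Control rat for 4. Library 53 was the highest Control rat for 6, library 72 the highest High rat for 6 and library 63 the highest Low rat for 5.

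The mean log2 value over the members was lowest in library 67, at 3.52, and highest in libraries 63 and 64, at 5.86 and 5.79. It was 4.52 in library 57, while the other Low rats had 5.20 to 5.86, and 5.15 in library 72, the highest of High. Library 67 also had the lowest summed level of neuronal markers of all, 961, against 1303 to 1923 in the other High rats. Its median rank correlation with its own group over the genes was 0.968, and those of libraries 49, 56, 57, 63 and 64 were 0.953 to 0.963, while all others were at least 0.979. The part of these library differences in the results was not tested. Without library 67 the median difference of the members between Low and High was 0.72, and without library 57 it was 0.99.

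Library 68 broke the common movement. It held the highest Egr3 (81.1) and Homer1 (75.3) of the High group, together with the lowest Npas4 of all rats (2.84) and an Arc value of 31.6. Its ratio of Npas4 to Egr3 was 0.035, against 0.160 to 0.405 in the other High rats and 0.376 to 0.694 in Low. In library 72 the Egr genes, Nr4a1, Nr4a3 and Arc were high for the group while Npas4 was 9.61, below the High median.

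**Figure D3:**
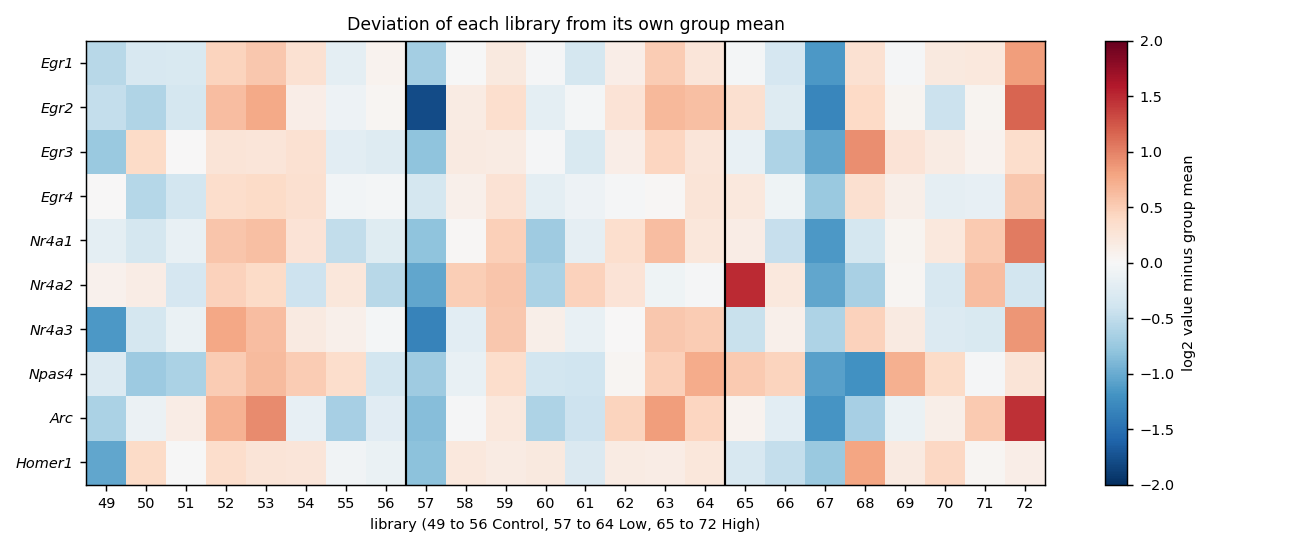
Heat map of the log2 value of each gene (rows) in each library (columns) minus the mean of its own group, with red above and blue below that mean. Libraries 57 and 67 are blue in all 10 rows, library 72 is red in every row but that of Nr4a2, and library 65 is darkest in the Nr4a2 row.

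After subtracting group means, most members varied together from rat to rat. Over the 45 pairs and 24 libraries, Pearson's r of log2 values ran from 0.09 to 0.94 with a median of 0.61, as a description across libraries that also share depth and tissue composition. The closest pairs were Egr3 with Homer1 (r = 0.94), Nr4a1 with Arc (r = 0.93) and Egr1 with Egr2 (r = 0.88). Without the 2 libraries farthest from the median of the first gene, their r was 0.92, 0.89 and 0.82. This took Egr2 with Homer1 from 0.60 to 0.34 and Egr3 with Npas4 from 0.25 to -0.08, and Npas4 with Homer1 from 0.21 to 0.35. Nr4a2 stood apart, with a median r of 0.35 to the others, and Npas4 had at most 0.66, with Nr4a1. The correlation with the mean of the other 9 members was 0.92 for both Egr1 and Egr2 and 0.40 for Nr4a2.

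**Figure D4:**
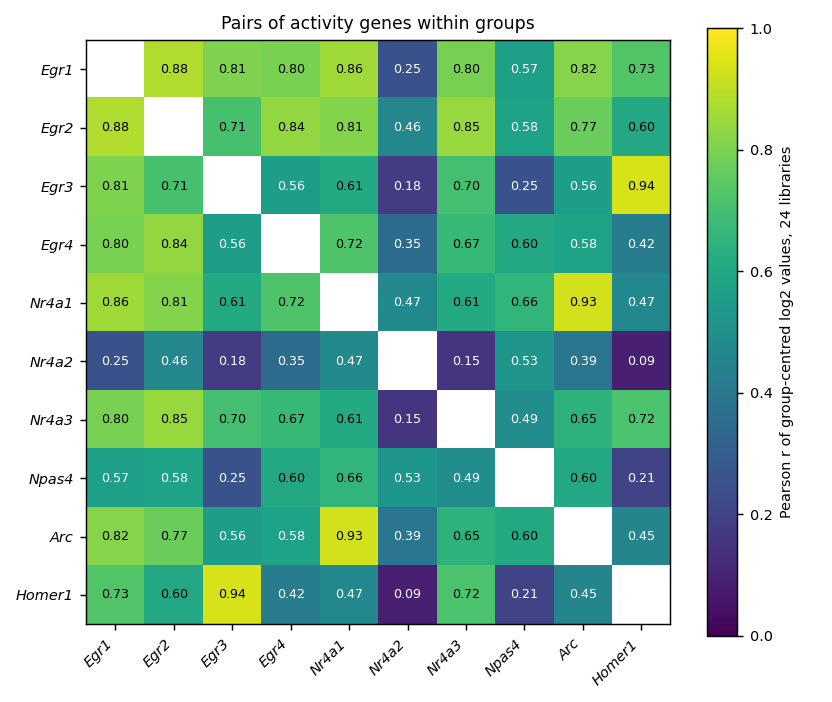
Pearson r between each pair of the 10 genes over 24 libraries, on log2 values after subtracting group means, with lighter cells for higher r. Nr4a2 gives the darkest row, from 0.09 with Homer1 to 0.53 with Npas4.

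Among all other genes tested, the 8 with the highest r to the mean of the members were Dusp6 (0.88), Klf10 (0.85), Trib1 (0.85), Dnajb5 (0.85), Fos (0.84), Ptgs2 (0.84), Junb (0.81) and Mef2c (0.80). Dusp6 encodes a phosphatase that shuts off ERK, Fos and Junb encode parts of AP-1, Ptgs2 encodes the inducible cyclooxygenase of excitatory neurons, and Mef2c encodes a factor that acts on activity genes. These are values over the same 24 libraries after subtracting group means. Mef2c had a Spearman's rho of 0.52, far from its r, and its Low values were 154 to 230 except for 51.3 in library 57, while the rho of the other 7 genes was 0.79 to 0.89.

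Other genes of the activity response were taken from lists written with earlier results of these data known. Of 29 other immediate early genes tested (Atf3 was below the filter), 15 (51.7%) rose and 0 fell in Low against High, with a median log2 difference of 0.54, where 11.7% of all genes tested passed in either direction and 5.3% rose. The 4 with the largest differences were Junb, Dusp1, Fos and Btg2. Junb had scaled coverage of 116 ± 27.7 in Low, 71.0 ± 18.1 in Control and 52.8 ± 17.9 in High (SD, n = 8), a log2 difference between Low and High of 1.15 ± 0.19 (SE, limma adjusted p = 0.000194). Dusp1, a phosphatase of MAP kinases that glucocorticoids also induce, had a log2 difference of 1.11 ± 0.31 (SE, limma adjusted p = 0.0181). Fos had 54.6 ± 16.1 in Low and 26.0 ± 10.2 in High (SD, n = 8), a difference of 1.09 ± 0.25 (SE, limma adjusted p = 0.00551). Btg2, an antiproliferative gene, had 0.97 ± 0.29 (SE, limma adjusted p = 0.0282). Against Control, Junb was the only gene of this list past the threshold in Low (log2 difference 0.71 ± 0.19 SE, limma adjusted p = 0.0274), and 0 passed in High, where 5 had an unadjusted p under 0.05. With libraries 56 to 62 left out, 1 gene of the list passed between Low and High.

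Genes that follow the immediate early wave were tested as another list of 18 (Bdnf was below the filter and Cort was not found). Of these, 6 (33.3%) rose and 0 fell in Low against High, with a median of 0.33, beside 11.7% past the threshold and 5.3% risen over all genes. Ptgs2 had a log2 difference of 0.74 ± 0.22 (SE, limma adjusted p = 0.0313), Plk3 of 0.53 ± 0.12 (adjusted p = 0.00502), Plk2 of 0.41 ± 0.11 (adjusted p = 0.0178) and Gadd45b of 0.39 ± 0.12 (adjusted p = 0.0287). Plk2 and Plk3 encode polo-like kinases, Plk2 being known to weaken synapses after activity, and Gadd45b acts in DNA demethylation. Sertad1 alone passed between Low and Control, with 0.38 ± 0.11 (SE, limma adjusted p = 0.0328). Between High and Control 0 of 18 passed, and 0 had an unadjusted p under 0.05. Without scaling, 0 genes of this list passed between Low and High.

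Of 27 upstream genes tested, from receptors and channels to the kinases and factors that act on these promoters, 4 (14.8%) rose and 0 fell in Low against High, near the 11.7% of all genes past the threshold in either direction (5.3% rose). The median of the list was 0.10, close to the 0.09 of all genes. Those past the threshold were Grin2a (log2 difference 1.22 ± 0.39 SE, limma adjusted p = 0.0454) and Grin2b (0.31 ± 0.07, adjusted p = 0.0043), which encode NMDA receptor subunits, Camk4 (0.56 ± 0.17, adjusted p = 0.0376), a nuclear calcium-dependent kinase, and Crebbp (0.33 ± 0.10, adjusted p = 0.0378), the CREB-binding coactivator. Mkl1 and Mkl2 were not found by these names. In either comparison with Control 0 genes of the list passed, with 3 under an unadjusted p of 0.05 in each. Without scaling, 0 genes of this list passed between Low and High.

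Partners of the encoded proteins gave mixed directions. Of 20 tested, 1 rose and 3 fell in Low against High (20.0% past the threshold, against 11.7% of all genes), with a median of 0.06. Shank2, a postsynaptic scaffold that binds Homer, had scaled coverage of 8.72 ± 1.68 in Low, 33.5 ± 6.90 in Control and 29.8 ± 5.16 in High (SD, n = 8), and its Low values lay below all others. Its log2 difference was -1.82 ± 0.14 between Low and Control (SE, limma adjusted p = 3.67e-10) and -1.67 ± 0.14 between Low and High (adjusted p = 2.09e-09). Rxrb, a retinoid X receptor that pairs with other nuclear receptors, was 31.5 ± 1.83 in Control, 21.9 ± 2.22 in Low and 32.1 ± 2.63 in High (SD, n = 8), with log2 differences of -0.51 ± 0.06 (SE, adjusted p = 1.68e-06) and -0.53 ± 0.06 (adjusted p = 7.01e-07). Sh3gl3, an endophilin of the family that binds Arc, had -0.38 ± 0.09 between Low and High (SE, limma adjusted p = 0.00515), at a low level of 1.12 in Low and 1.76 in High. Nab1, a corepressor that binds Egr factors, had 0.25 ± 0.08 between Low and High (SE, limma adjusted p = 0.0418). Since the Low tables alone list 0 assembled loci, the kind of table and the exposure cannot be told apart for these genes.

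**Figure D5:**
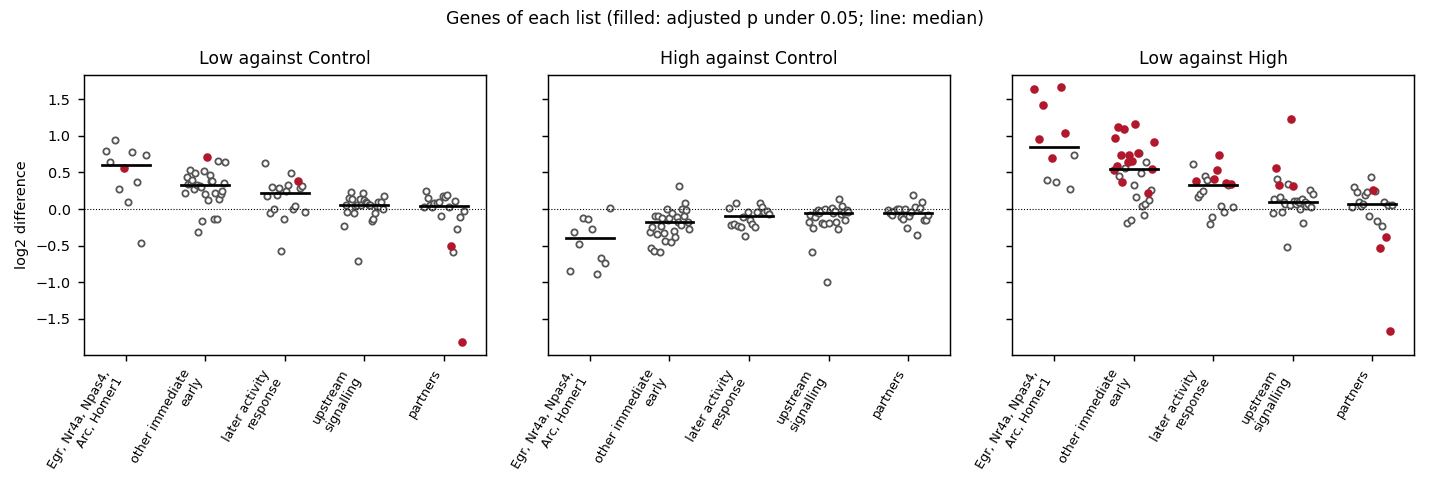
Log2 difference of each gene in the list of members and in the 4 companion lists for each comparison, with filled points for an adjusted p under 0.05 over all genes tested and a line at the list's median. In Low against High the medians are 0.84 for the members, 0.54 for other immediate early genes, 0.33 for later response genes, 0.10 for upstream genes and 0.06 for partners.

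In the Control and High tables, an assembled locus on the same strand overlapped every member. In 80 of the 160 cases (10 genes in 16 tables) its coverage equalled the reference row to within 1e-06. This was so in all 16 tables at Egr1 and Egr4, in 15 at Egr2, in 11 at Nr4a3 and Npas4, in 6 at Arc, in 4 at Nr4a2, in 1 at Egr3 and in 0 at Nr4a1 and Homer1. The values above use the reference rows alone. Where coverage is equal, adding the locus enters the same value again in Control and High alone, which lowers Low against them by construction. The sum therefore cannot decide the direction of the Low group. At Arc the locus had the start and end of the reference row in all 16 tables, and at Nr4a2 and Homer1 in 5 each. At Arc in Control library 49, for example, its unscaled coverage was 112 against 118 in the reference row. Whether locus and reference row shared reads where their coverage was not equal was not tested. With the overlapping loci added, which raises Control and High and leaves Low as it was, the sign changed in 8 of 10 members between Low and Control and in 6 of 10 between Low and High.

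With the loci added, the log2 difference between Low and Control was -0.36 for Egr1, 0.05 for Egr2, -0.45 for Egr3, -0.41 for Egr4 and -0.53 for Nr4a1. It was -1.38 for Nr4a2, -0.16 for Nr4a3, -0.14 for Npas4, -0.18 for Arc and -0.70 for Homer1, so Egr2 alone was higher in Low. Between Low and High it stayed positive for Npas4 (0.79), Arc (0.67), Egr2 (0.56) and Nr4a1 (0.37). It was -0.04 for Egr1, -0.31 for Egr3, -0.27 for Egr4, -0.65 for Nr4a2, -0.17 for Nr4a3 and -0.48 for Homer1. Between High and Control, whose tables are of the same kind, the sign changed in 0 of 10 members. Loci on the opposite strand were found mainly in Control library 56, with an unscaled coverage of 228 at Homer1, 202 at Egr3 and 95.7 at Egr1.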

How the data were processed

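mRNA of frontal cortex was sequenced from 24 rats. The submitters' processing notes name FastQC, Trimmomatic, TopHat2, StringTie and the build mRatBN7.2, with no versions. Positions were not checked against a genome. The deposited positions and gene names look like those of an older rat assembly, so the positions printed above may not be of that build. The authors deposited a StringTie table per rat with coverage (mean depth per base, a signal not scaled for depth), FPKM and TPM. In the Control and High tables the deposited TPM column is a score, since assembled loci are listed beside the 32883 reference genes and its sum exceeds 1000000. Read counts are not in the tables.

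Coverage was summed per gene and expressed per 1000000 of the reference sum. Limma 3.58.1 (trend, robust; R 4.3.3) was fitted to log2(value + 1) of all 24 libraries together, for the 15644 genes whose mean reached 1. Tests were two-sided, and the threshold was 0.05 on p-values adjusted by Benjamini-Hochberg over these genes. This scale understates changes of low genes. Groups came from the sample titles. Litters and cages are not given in the labels, so p-values measure only the spread between these libraries. Python 3.11.15, numpy 2.4.6, pandas 2.3.3 and matplotlib 3.10.9 were used for the rest.

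The members and all gene lists were chosen with earlier results of these data known. Named genes are the members, up to 4 genes per list and comparison with the largest absolute log2 difference among those past the threshold, and the 8 genes most correlated with the mean of the members. Alternatives were a pseudocount of 0.1, no filter or a minimum mean of 5, other scalings, the FPKM and TPM columns, only the groups compared, libraries 56 to 62 as a covariate, Wilcoxon tests, assembled loci added and each library left out. Leaving out libraries 56 to 62, or 49 and 57, was added after seeing the data.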

Additional observations from a re-analysis of the deposited data

Results flagged for a closer look

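Some values of a single rat lay far from the rest of their group. By Dixon's criterion, 8 of the 126 sets of 8 values checked were picked out, where 6.3 would be by chance. Among the members these were the scaled coverage of Nr4a2 in High library 65 (40.0, others 6.09 to 21.2) and of Arc in High library 72 (141, others 21.8 to 73.5). In Control library 49 they were Camk4 (24.2, others 39.1 to 50.8) and Shank2 (17.6, others 32.2 to 38.7). The others were Gadd45b in Control library 53 (22.8, others 12.5 to 16.4), Fbxo33 in Low library 61 (18.5, others 24.3 to 29.1), Mef2c in Low library 57 (51.3, others 154 to 230) and Grin2a in High library 70 (21.9, others 3.67 to 11.7).

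The Low and High groups, each set against the shared Control rats, differed in the same 6 members as in the limma comparison above. The Control rats cancel in that difference, so it is the comparison of Low with High itself and no separate result. The log2 difference between Low and High was 1.66 for Npas4, 1.64 for Arc, 1.42 for Egr2, 1.03 for Nr4a1, 0.95 for Egr1 and 0.70 for Egr4. These genes were chosen with those values in view, so the differences are a description. Those of Egr1 and Egr4 change sign with assembled loci added, whose coverage equals the reference row in all 16 Control and High tables.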

How the results depend on the processing

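The sign of each member's log2 difference between Low and High was the same in all 120 values under 12 alternatives with the reference rows alone. Between Low and Control it was the same in 119 of 120, the exception being Nr4a2 with the FPKM column, and between High and Control in 116 of 120. These counts do not cover leaving out a library in turn. Homer1 was then -0.05 between Low and Control without library 49. Between High and Control, Egr3 reached 0.02 without library 67 and Nr4a3 -0.16 without library 49. The lowest value between Low and High was 0.13, for Nr4a2 without library 67. Adding assembled loci to the reference rows, which adds to Control and High alone, changed the sign of 8 of 10 members between Low and Control (values from -1.38 to 0.05), 6 of 10 between Low and High (-0.65 to 0.79) and 0 of 10 between High and Control. Members past the threshold that changed sign were Egr4 between Low and Control (-0.41), and Egr4 (-0.27) and Egr1 (-0.041) between Low and High. At both genes the locus equalled the reference row in all 16 Control and High tables. Adding it enters the same value again, so these changes do not decide the direction of Low. The FPKM column moved the median of all genes to 0.53 between Low and Control and 0.52 between Low and High, and the medians of the members to 1.08 and 1.27. Without scaling, the median of all genes was -0.11 between Low and High.

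Members past the threshold between Low and Control were 0 with no filter, without scaling, with median-of-ratios scaling, with libraries 56 to 62 as a covariate or left out and by Wilcoxon tests. They were 2 with scaling without mitochondrial genes, 3 without libraries 49 and 57, 7 with the TPM column and 9 with FPKM, and 0 to 4 with a library left out in turn, 0 without library 50, 51, 55, 58, 59 or 62, 2 without library 67 and 4 without library 57. Between Low and High they were 10 with FPKM, 3 with libraries 56 to 62 left out (member median 1.29), and 6 to 7 with a library left out.

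Genes past the threshold between Low and Control, 956 in all, were 344 with libraries 56 to 62 left out, 361 with them as a covariate, 360 by Wilcoxon tests, 535 with only the groups compared, 556 at a minimum mean of 5, 613 without scaling, 1759 scaled without mitochondrial genes, 3952 with TPM, 12393 with FPKM and 676 to 1224 with a library left out. Between Low and High, 1828 in all (829 higher, 999 lower), they were 354 with libraries 56 to 62 left out or as a covariate, 1113 by Wilcoxon tests, 1129 without scaling (77 higher, 1052 lower), 1192 at a minimum mean of 5, 3927 with TPM, 4514 without libraries 49 and 57, 12410 with FPKM and 1266 to 2676 with a library left out. Median-of-ratios scaling gave 353 higher and 1298 lower. Between High and Control they were 390 without libraries 49 and 57, and 0 with a single library left out.

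Of the other immediate early genes, 1 to 26 passed between Low and High over the alternatives and 8 to 17 with a library left out. Of the later response genes it was 0 to 17 and 2 to 8, of the upstream genes 0 to 25 and 1 to 7, and of the partners 2 to 18 and 3 to 6. No paired analysis was made, since the sample titles give no pairing of rats between groups.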
